A study of Caenorhabditis elegans with 2 samples.

Results

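Autosomal single-gene promoter peaks are the regions bound by tagged COG-1 that lay at the start of 1 protein-coding gene and of no other. They were taken from the deposited thresholded peak list on build ce11: a peak on 1 of the 5 autosomes was a member if exactly 1 protein-coding gene had its annotated start near the summit, the position the authors' caller marked within the region. Near means a summit at most 1000 bp upstream or 500 bp downstream. There were 490 such peaks at 473 genes, out of 1841 peaks in the whole list and 1414 on the autosomes. This is 34.7% of the autosomal peaks (95% exact Clopper-Pearson interval 32.2 to 37.2).

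The peaks come from chromatin immunoprecipitation and sequencing (ChIP-seq) of COG-1 in Caenorhabditis elegans. Both samples were biological replicates of 1 group, hermaphrodite mid-embryos of strain OP541 taken 3 h after synchronization by bleaching eggs, and both carried the unc-119(tm4063) mutation and the integrated transgene wgIs541, from which COG-1 is made with GFP and FLAG at its C-terminus. Whole animals were used, so a peak cannot be assigned to a cell type, and fewer cells with binding cannot be told apart from less binding in each cell. The antibody was against GFP. An input, untagged or differently tagged sample was not analysed here, although a control alignment entered the authors' lists, per the deposited file listing.

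As background, COG-1 belongs to the NK6 class of homeodomain proteins. It is known as a regulator that helps to set which of the paired ASE taste neurons takes which fate, and it is needed for the vulva and the uterus. Homeodomains contact short AT-rich cores in DNA. Many C. elegans genes receive a spliced leader at their 5′ end, so an annotated gene start often marks the trans-splice acceptor and not the place where transcription begins, and distances below are from annotated starts.

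The summits of the strongest members lay in the following sequences, shown because they carry the highest signal. Windows of this size were used for all motif counts below. Each run is 101 bases of WBcel235, the assembly that is ce11, centred on the summit and read 5′ to 3′ on the strand of the gene, for the 6 members of highest signal on chromosomes II to V whose window overlaps no annotated exon. Capitals mark matches on either strand to CTGCGTCT, a nematode core promoter motif, to the repeat GAGAGA, and to the GC-rich GGCGCG.
K12H4.5: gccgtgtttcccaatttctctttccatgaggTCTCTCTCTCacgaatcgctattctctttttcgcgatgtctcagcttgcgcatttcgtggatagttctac
rpl-3: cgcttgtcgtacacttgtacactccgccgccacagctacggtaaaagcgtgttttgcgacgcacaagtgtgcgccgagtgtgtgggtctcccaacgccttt
tos-1: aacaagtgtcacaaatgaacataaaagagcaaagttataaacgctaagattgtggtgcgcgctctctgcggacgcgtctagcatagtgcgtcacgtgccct
cdc-48.1: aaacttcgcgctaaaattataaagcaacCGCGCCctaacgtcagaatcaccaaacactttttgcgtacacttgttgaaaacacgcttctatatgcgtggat
rpl-35: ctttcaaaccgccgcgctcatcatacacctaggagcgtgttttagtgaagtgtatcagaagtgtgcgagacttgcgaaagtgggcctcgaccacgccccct
Y39E4B.6: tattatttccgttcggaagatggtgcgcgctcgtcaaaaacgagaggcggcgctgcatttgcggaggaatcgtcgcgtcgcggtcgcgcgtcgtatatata

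In order, these windows are chrIII:8043908-8044008, on the + strand at K12H4.5; chrIII:3867531-3867631, on the + strand at rpl-3; chrV:9344250-9344350, on the − strand at tos-1; chrII:10563530-10563630, on the − strand at cdc-48.1; chrIII:7854639-7854739, on the + strand at rpl-35; and chrIII:13070635-13070735, on the + strand at Y39E4B.6. The K12H4.5 window held a tract of GAGAGA matches and the cdc-48.1 window held GGCGCG, and the others held none of these 3 motifs. Their GC content ran from 41.6% at cdc-48.1 to 57.4% at rpl-3, against a median of 33.7% in windows 283 bp upstream of all autosomal gene starts.

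Of the strongest further members with CTGCGTCT, 5 chosen in the same way are shown because this motif was more frequent at summits than beside them, as described below.
lin-66: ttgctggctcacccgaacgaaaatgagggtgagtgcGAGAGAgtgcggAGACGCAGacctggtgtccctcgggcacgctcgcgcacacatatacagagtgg
ntl-11: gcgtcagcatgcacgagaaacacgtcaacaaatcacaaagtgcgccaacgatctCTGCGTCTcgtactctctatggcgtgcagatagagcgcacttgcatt
tbc-14: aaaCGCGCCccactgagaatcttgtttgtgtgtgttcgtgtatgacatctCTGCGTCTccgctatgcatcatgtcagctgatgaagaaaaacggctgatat
hmg-1.2: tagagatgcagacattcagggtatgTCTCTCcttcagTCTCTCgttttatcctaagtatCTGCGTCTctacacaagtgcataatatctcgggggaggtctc
lec-1: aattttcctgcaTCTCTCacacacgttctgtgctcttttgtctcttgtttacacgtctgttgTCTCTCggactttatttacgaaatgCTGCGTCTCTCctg

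These windows are chrIV:13887566-13887666, at lin-66; chrIV:15471575-15471675, at ntl-11; chrII:13447818-13447918, at tbc-14; chrIII:6280254-6280354, at hmg-1.2; and chrII:13195309-13195409, at lec-1, with ntl-11 and tbc-14 read on the − strand. In lec-1 the motif runs into a GAGAGA match, since the last 3 letters of CTGCGTCT are also the first of TCTCTC, the reverse complement of GAGAGA.

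Most members were upstream of their gene, as a rule at some distance from its start. The window itself reaches 1000 bp upstream and only 500 bp downstream, so it favours upstream summits. The shares below describe the members within it and were not tested. The summit lay upstream of the start in 450 of 490 members, or 91.8% (interval 89.1 to 94.1). The median distance of these was 283 bp, with quartiles of 178 and 465 bp. The fullest 100-bp bin ran from 300 to 200 bp upstream and held 101 peaks, and the bin from 200 to 100 bp held 96. From 100 bp upstream to the start itself there were 48, and in the 100 bp after it there were 10. In all, 212 members, or 43.3% (38.8 to 47.8), lay within 250 bp of the start on either side. The window fixes the limits of this distribution: the outermost members were at dhs-8, 994 bp upstream, and ppat-1, 481 bp downstream, and the nearest peaks outside were 1006 bp upstream of cnt-1 and 531 bp downstream of spe-15.

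**Figure D1:**
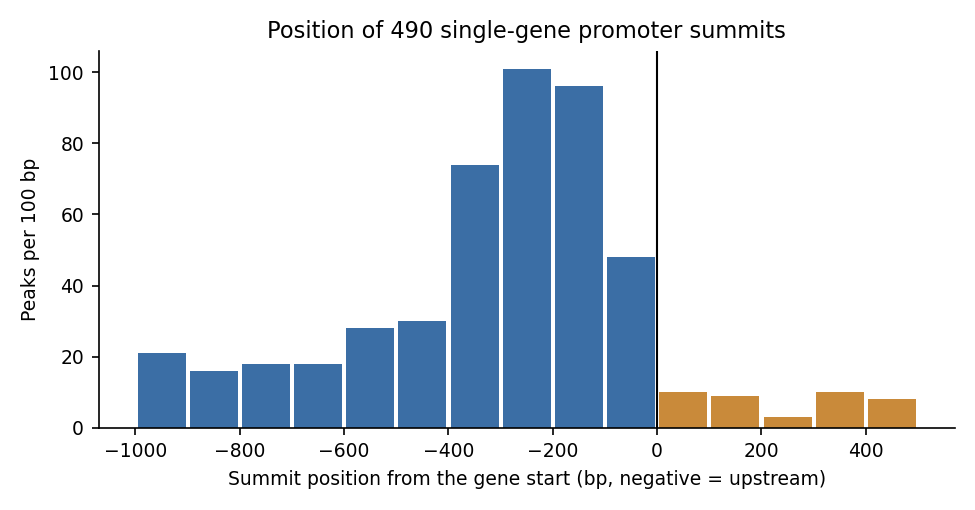
Number of the 490 peaks per 100 bp, by the position of the summit relative to the annotated gene start in bp. Blue bars are upstream and orange bars are at or downstream of the start; the bins between 400 and 100 bp upstream are the highest, and each bin after the start holds 10 peaks or fewer.

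Most summits were in intergenic sequence, 380 of 490. A further 63 lay in exons outside coding sequence, of which 36 were in no protein-coding gene but in an annotated gene of another class, 40 lay in introns and 7 in coding exons. Of the 40 in introns, 25 were inside another protein-coding gene and not the member gene, as at swsn-3, mcm-10 and C47E8.4. The same held for 12 of the 63. The nearest protein-coding gene on the upstream side was on the same strand for 275 of the 473 genes, with a median gap of 719 bp from its end to the member gene's start. For 170 genes it pointed the opposite way, with a median gap of 2618 bp between the 2 starts. The gap was short in some, as 236 bp at H41C03.3 and 42 bp at clec-53. There the summit lay past the downstream limit of the neighbour's window. The starts of 28 genes lay inside another protein-coding gene.

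Members were spread over all 5 autosomes. The numbers were 120 on chromosome I, 117 on II, 91 on III, 84 on IV and 78 on V. The genes that held them were 4.07% of the protein-coding genes of chromosome I, 117 genes, and 1.48% of those of V, 74 genes. By position, 304 members, or 62.04% (57.6 to 66.4), lay in the middle 50% of the length of their chromosome, where 55.7% of autosomal protein-coding genes start. Over all autosomes, 2.74% of 17242 protein-coding genes held a member peak, and the gene lists below are read against that share.

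Signal is the value the authors' caller gave each region. Its scaling to depth is not given in the sources used here, and it served only to describe and order regions within a list. Members ran from 77.8 to 769 in the pooled list, with a median of 108 and quartiles of 89.4 and 143. The 318 autosomal divergent promoter peaks, whose summits lay in the windows of genes on both strands, had a median of 114, and the 461 autosomal intronic and intergenic distal peaks had 104.02. The ratio of the member median to the divergent median was 0.949 in the pooled list and 0.973 with the signals of either replicate at the same peaks. These medians lay well inside each other's quartiles. Width did not rise with signal. Of the members, 453 were exactly 450 bp wide, and across members width and signal had a Spearman correlation of −0.410. The 20 strongest were narrower, with a median width of 291 bp. The q-value was at its cap of 3.45, on the −log10 scale, in 365 members.

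Of 490 members, 488 had their summit inside a region of each replicate's own relaxed list. The IDR list was derived from these lists, so this follows from how peaks were chosen, and of all 1414 autosomal peaks 1412 lay in a region of replicate 1 and 1411 in one of replicate 2. The exceptions were knl-2, a kinetochore gene, which had a signal of 74.5 in replicate 1 and no region in replicate 2, and pbs-3, a proteasome subunit gene, which had 55.8 in replicate 2 and none in replicate 1. Across members the replicate signals had a Spearman correlation of 0.589, as a description over 488 peaks that share their libraries. The summits called in each replicate were a median of 27 bp apart, and within 50 bp for 342 of 488. A stricter reading counts only the 1841 strongest regions of each replicate: 331 members, or 67.6% (63.2 to 71.7), were among these in both, and 6 in neither. Y73F8A.27 stood at rank 17037 of the 21617 regions of replicate 1, and cwc-15, a splicing factor gene, at rank 7679 of the 20247 of replicate 2.

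**Figure D2:**
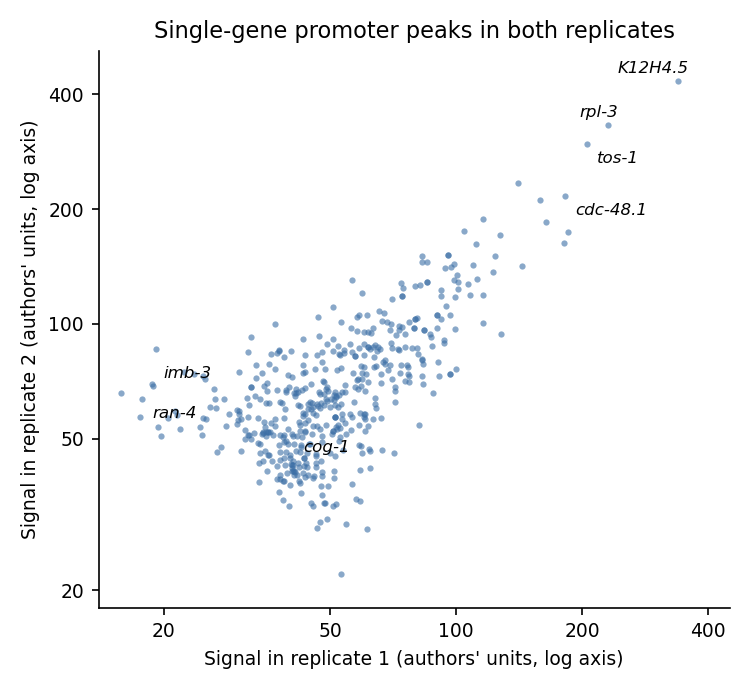
Authors' signal of each member in the region of replicate 1 (horizontal) and of replicate 2 (vertical) that held its summit, both on log axes, for 488 peaks. K12H4.5, rpl-3 and tos-1 are highest in both, whereas ran-4 and imb-3 are low in replicate 1 only.

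The 4 strongest members ranked high in both replicates. K12H4.5 (WBGene00019680), known here by its sequence name only, had a signal of 339 in replicate 1 and 432 in replicate 2 and was first in both, with its summit 529 bp upstream of the start. At rpl-3 (WBGene00004414), which encodes a protein of the large ribosomal subunit, the values were 230 and 332, and it was second in both. The tos-1 gene (WBGene00019466), known as a splicing target of several RNA-binding proteins, had 205 and 296 at a summit 97 bp upstream. At cdc-48.1 (WBGene00007352), the p97-type ATPase that unfolds ubiquitinated proteins, the signals were 182 and 216. These ranked 9 and 16 in the replicates.

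Further members among the 20 strongest include genes of known function. The promoter of cbp-1, the CBP/p300 histone acetyltransferase, had 127 in replicate 1 and 171 in replicate 2, and its summit was 866 bp upstream. At gsa-1, a G protein alpha subunit, the values were 143 and 142, so the replicates gave nearly the same number. For hsp-1, a constitutive Hsp70 chaperone, they were 124 and 151. The Hox repressor sor-1 had 122 and 137, and lin-59, an ASH1-type regulator of Hox genes, had 110 and 142. The nuclear envelope gene lem-2 had 98.6 and 144. Others of the 20 strongest were rpl-35, Y39E4B.6, H41C03.3, T02E1.2, sre-23, egg-5, Y18D10A.4, W06H8.6 and Y59A8B.24, with pooled signals from 249.8 at Y59A8B.24 to 373 at rpl-35. Y18D10A.4 was the 1 member of the 20 with its summit in coding sequence, 81 bp after the start.

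Replicates disagreed most, among the 100 strongest members, at chd-7, cox-5B, gst-27, W01D2.3 and C06A6.2. The chromatin remodeller gene chd-7 ranked 873 in replicate 1 and 244 in replicate 2, with signals of 50.8 and 111. The cytochrome oxidase gene cox-5B ranked 686 and 139. The opposite order held for gst-27, a glutathione S-transferase gene, at 243 and 779, and for W01D2.3 and C06A6.2. So neither replicate was the weaker in all of them.

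There were 17 genes with 2 member peaks and none with more. In 16 of the 17 the regions overlapped, the summits being 199 to 211 bp apart, and in 11 both summits fell in 1 and the same region of each replicate. In those 11 the 2 pooled peaks share their replicate values, and they are not taken to be separate sites of binding. Both are still counted as members in all shares, correlations and tests here. The strongest were tos-1, with 504 and 190 at summits 201 bp apart, egg-5, with 308 and 185, and Y59A8B.24, with 249.8 and 97.9. F54F2.6 followed with 239.9 and 126, and C47E8.4 with 210 and 111. The exception was lgg-2, an autophagy gene of the LC3 family, whose summits were 731 bp apart with 139.6 and 129.

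Some members also had a non-coding RNA gene near the summit. In 53 of 490, or 10.8% (8.21 to 13.9), a gene for a tRNA, snoRNA, snRNA or miRNA lay within 500 bp of the summit. The share was 4.40% of 318 at divergent promoters (14 peaks), and the difference of 6.41 percentage points passed the two-sided Fisher's exact test (adjusted exact p = 0.00205 over 2 comparisons). With genes counted up to 1000 bp away the difference was 4.59 percentage points and did not pass (adjusted exact p = 0.0934). Against intronic and distal peaks, where 54 of 461 or 11.7% had such a gene, it did not (adjusted exact p = 0.682). By class, members were near a tRNA gene in 21 cases, with the summit inside it in 9, and near a snoRNA gene in 24. They were near an snRNA gene in 6, which include both peaks of egg-5, and near a miRNA gene in 2. The annotation's general class of ncRNA genes was more common, at 91 members or 18.6%, against 15.7% at divergent and 17.6% at intronic and distal peaks.

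These cases include several of the strongest members. At H41C03.3 the summit was 935 bp upstream of the gene and 23 bp from sls-2.1, a gene for the SL2 spliced leader, with signals of 158 and 211 in replicates 1 and 2. The second peak of egg-5, a gene of the oocyte-to-embryo transition, was 69 bp from another SL2 gene, sls-2.4. At T02E1.2, with 185 and 174, a snoRNA gene lay 36 bp away. The chemoreceptor gene sre-23, with 181 and 163, had its summit 627 bp upstream of its start and 68 bp from a snoRNA gene. Members near snoRNA genes had a median pooled signal of 143 and those near tRNA genes 118, beside 108 for all members.

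The genes holding member peaks were described with 32 lists, of which 28 had at least 1 such gene. In 16 lists the share was over 2 times the 2.74% of all autosomal protein-coding genes. Of these, the interval lay above 2.74% for cytosolic ribosomal protein, muscle, chromatin, nuclear pore, ubiquitin and respiratory chain genes only. In the others it included 2.74%, as for vacuolar ATPase genes with 1 of 17 (0.149 to 28.7). A peak whose summit lies in the windows of several genes is no member. The number of a list's genes at peaks in shared windows is given for some lists only. Of the lists given without it, respiratory chain genes had the most, at 10. Lists were not tested, and intervals are exact binomial ones that cover counting error only.

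Cytosolic ribosomal protein genes held the highest share of the 32 lists: 15 of 81, or 18.5% (10.7 to 28.7), with a further 37 at peaks in shared windows. The large-subunit gene rpl-35 had 140 in replicate 1 and 234 in replicate 2. The small-subunit gene rps-24 had 69.8 and 100.2, and rpl-41.2 had 60.4 and 94.9. The 11 others beyond rpl-3 ran from 79.2 at rps-25 to 138.5 at rpl-14 in the pooled list, and all but rpl-19 had the summit upstream, between 150 and 445 bp from the start over the list. Mitochondrial ribosomal protein genes held 5 of 70, or 7.14%, led by mrpl-23 with a pooled signal of 179.8, although that summit was 969 bp upstream and inside an annotated non-coding RNA. Among translation factors there were 2 of 39, eif-3.C with 196.5 and eif-3.B with 196, both subunits of the initiation factor that brings mRNA to the small ribosomal subunit. No tRNA synthetase gene of 31 held a member peak, and 1 did with the narrower window of 500 bp upstream to 250 bp downstream or from replicate 1 alone.

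Chromatin and SynMuv regulators held 14 of 96, or 14.6% (8.21 to 23.3), and 14 genes of the list were at peaks in shared windows. After cbp-1 came swsn-3, a subunit of the SWI/SNF remodelling complex, with 82.1 in replicate 1 and 126 in replicate 2. Its summit lay in an intron of another protein-coding gene. The synthetic multivulva gene lin-36 had 74.3 and 98.3, and swsn-7, of the same SWI/SNF family of complexes, had 71.6 and 93.2. The others were chd-7, set-4, hmg-1.2, hmg-1.1, rcor-1, isw-1, lin-13, set-2, mep-1 and lin-9, from 92.4 to 154 in the pooled list.

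Genes for protein turnover and for the cell cycle overlapped in cdc-48.1. The ubiquitin system held 10 of 107, or 9.35% (4.57 to 16.5), and after cdc-48.1 the strongest were the deubiquitinase otub-2 at 169, usp-4 at 164 and the ubiquitin-conjugating enzyme ubc-3 at 140.4. The proteasome itself had 1 of 33, pbs-3. Cyclins, CDKs and S-phase genes had 6 of 88, or 6.82%, among them cdk-7, the CDK-activating kinase, at 204, the replication factor mcm-10 at 185 and wee-1.3, an inhibitory kinase of the cell cycle, at 162. Respiratory chain genes had 6 of 66, or 9.09%, led by cox-5A at 230.5. Splicing factors had 4 of 60, chaperones 4 of 63 and secretion genes 6.03%, with 15, 15 and 20 of their genes at peaks in shared windows. In these lists rsp-6, an SR splicing factor, had 147, sti-1, an Hsp90 co-chaperone, 135, and sec-24.1, of the COPII coat, 152. Nuclear pore and import genes had 4 of 40, of which npp-8 had 147. Of the 4, ran-4 and imb-3 had signals of 17.8 and 18.9 in replicate 1 beside 63.5 and 68.5 in replicate 2, and the strongest regions of replicate 1 alone gave 2 genes of this list.

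Tissue lists were short, and their shares have wide intervals. Muscle genes had 4 of 27, or 14.8% (4.19 to 33.7): the attachment gene unc-112 at 227, the actins act-3 and act-2 at 97.5 and 92.1, and unc-89, an M-line protein, at 81.3. Actin genes are near-identical copies, and how reads that match more than 1 were placed is not given in the sources used here. This list depends on the replicate, with 8 genes from the strongest regions of replicate 1 alone and 2 from those of replicate 2 alone. Neuron and synapse genes had 3 of 40, with unc-14 at 234, unc-16 at 107 and maco-1 at 98.5. The epidermis list had hmp-1, an alpha-catenin, as 1 of 20. No gene of the pharynx list (15) or the intestine list (14) held a member peak. Such counts of 0 come from short lists and allow shares of up to 21.8% and 23.2%.

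Among regulators, homeobox genes had 4 of 75, or 5.33% (1.47 to 13.1). They were irx-1 of the Iroquois class, with 128 in replicate 1 and 93.9 in replicate 2, ceh-20, a Hox cofactor, with 87.3 and 92.4, the posterior Hox gene nob-1, with 56.4 and 57.01, and cog-1 itself, with 40.8 and 43.7. With a window of 500 bp upstream to 250 bp downstream, 1 homeobox gene was left, or 1.33%, which is below the 2.57% of all genes with that window. The cog-1 peak, 560 bp upstream of the start, was the weakest of the 4, at rank 1394 of 1841. The transgene carries cog-1 sequence, and reads from it cannot be told apart from those of the native locus in these lists. Of 26 genes from the ASE and vulva pathways of cog-1, the only other with a member peak was unc-37, the Groucho-type corepressor, at 67.8 and 78.5. Nuclear hormone receptor genes, a large family, had 5 of 247, or 2.02%, close to the share of all genes. Embryonic lineage factors had 2 of 35, nob-1 and the beta-catenin sys-1.

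Chemoreceptor genes and F-box and MATH genes held shares below that of all genes with their intervals. Chemoreceptor genes had 2 of 1282, or 0.156% (0.0189 to 0.562), which were sre-23, described above beside a snoRNA gene, and srh-269, whose summit was inside an annotated non-coding RNA. F-box and MATH genes had 0 of 395, which allows a share of up to 0.930%. In each of these 2 lists, 6 genes were at peaks in shared windows. C-type lectin genes had 2 of 237, or 0.844% (0.102 to 3.02), of which clec-126 had its summit 26 bp from a tRNA gene. Collagen and cuticle genes had 2 of 156, or 1.28% (0.156 to 4.55). Both of these intervals include the 2.74% of all genes. Of the collagen and cuticle genes, col-85 had its summit 325 bp after the start and inside a non-coding RNA. This was not particular to these lists. In all, 44 members had the summit inside a gene of the general ncRNA class, also at swsn-7, act-2, sec-24.1, hmp-1 and unc-16. Histone genes had 2 of 77, or 2.60%, close to the share of all genes, with a further 13 at peaks in shared windows. The first 2 were his-37, a histone H4 gene, at 236 and hil-7 at 149.

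**Figure D3:**
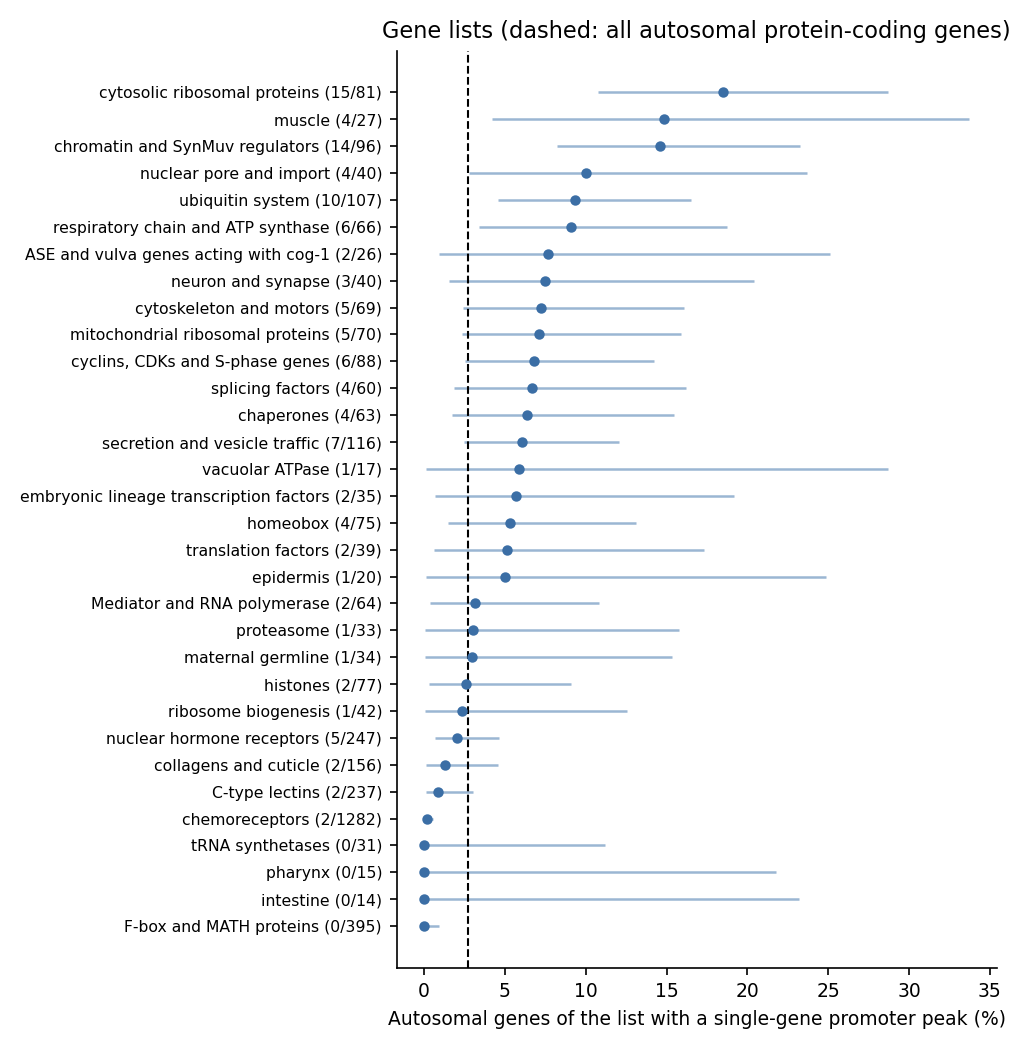
Share of the autosomal genes in each list that held a single-gene promoter peak, in percent, with exact 95% binomial intervals and the numbers in brackets; the dashed line is the 2.74% of all autosomal protein-coding genes. Cytosolic ribosomal protein genes (18.5%) and chromatin regulators (14.6%) lie right of the line with their intervals, and chemoreceptor genes (0.156%) and F-box and MATH genes (0 of 395) lie left of it.

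Summits stood out from the sequence beside them in base composition. The median GC content of the 101-bp summit windows was 46.5%, with quartiles of 42.6 and 51.5. Windows of the same size centred 400 bp farther from the gene had a median of 34.7%, and those 400 bp toward the gene had 37.1%. The summit was richer in GC than the outer flank in 411 of 490 members. Divergent summits had 46.5% and intronic and distal summits 47.5%. Averaged by position, GC content was 45.9% and 47.5% in the 50 bp on either side of the summit and 34.8% at 200 to 150 bp on the outer side.

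Of 18 short motifs searched on both strands, 13 differed between summit and outer flank in a two-sided exact McNemar test after Benjamini-Hochberg adjustment over the 18, with 8 more frequent at the summit and 5 less. GC content moved with these differences, since most motifs that were more frequent are GC-rich and most that were less frequent are AT-rich, and its part was not tested. The outer flank centre also lay in coding exons in 82 members, against 7 for the summit. A match gives the letters only and not a binding site.

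The motif CTGCGTCT was in 62 summit windows, or 12.7% (9.84 to 15.9), and in 6 flank windows, or 1.22% (adjusted exact p = 7.36e-12). It was in 0.928% of windows 283 bp upstream of all autosomal starts. In 56 of the 62 the base that followed was C, so that the longer form was CTGCGTCTC. It was on the strand of the gene in 40 and on the other in 22, and its centre was a median of 18 bp from the summit. The repeat GAGAGA was in 128 summit windows, or 26.1% (22.3 to 30.3), and in 5.51% of flanks (adjusted exact p = 1.49e-17) and 5.86% of all promoters. The share was 40.6% in the 101 members with summits over 500 bp upstream, beside 22.5% within 250 bp upstream. GGCGCG was in 45, or 9.18%, and in 2 flank windows (adjusted exact p = 7.22e-11). Any of the 3 was in 192 members, and CTGCGTCT and GAGAGA were both in 36, including windows where their letters overlap.

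Letters of other regulatory elements moved less. The GC box GGGCGG was in 8.16% of summits and 1.84% of flanks (adjusted exact p = 9.36e-06), and AAGTG, the core of NK2-type sites, in 26.9% and 19.0% (adjusted exact p = 0.00920), which did not pass against the flank toward the gene (0.0726) or in the stronger 50% of the list (0.178). The tRNA B box core GTTCGANNC was in 2.86% and 0.612% (adjusted exact p = 0.0208), a difference that fell to 0.640 percentage points and did not pass without peaks near tRNA genes (adjusted exact p = 0.544). GCGGGAA, of the E2F type, and TGACGT, of the CRE type, passed narrowly (adjusted exact p = 0.0463 and 0.0494), and neither did so without peaks near tRNA genes, where the adjusted p was 0.0505 and 0.0535. In the strongest regions of 1 replicate alone GCGGGAA passed in neither.

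Homeobox cores were less frequent at the summits than beside them. TTAATT, the core of NK6-type sites, was in 38 summit windows, or 7.76% (5.55 to 10.5), in 15.5% of flanks (adjusted exact p = 6.40e-04) and in 18.9% of all promoters. CAATTA was in 3.27% and 9.39% (adjusted exact p = 1.89e-04). TAATTA was in 14 summits and 24 flanks, 2.86% and 4.90%, and did not pass (adjusted exact p = 0.170). Against the flank toward the gene CAATTA did not pass (adjusted exact p = 0.0736), and in the stronger 50% of the list neither did TTAATT (adjusted exact p = 0.0542) nor CAATTA (0.0945). At least 1 of the 3 cores was in 50 members at the summit and in 113 in the flank. Splice acceptor letters, TTTCAG, were in 5.51% of summits and 20.6% of flanks (adjusted exact p = 3.16e-11). TTTTTTTT was in 3.47% and 12.7% (adjusted exact p = 8.70e-07), and TATAAA in 6.33% and 11.2% (adjusted exact p = 0.0208), the last of which did not pass against the flank toward the gene (0.662) or in the stronger 50% of the list (0.0855).

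**Figure D4:**
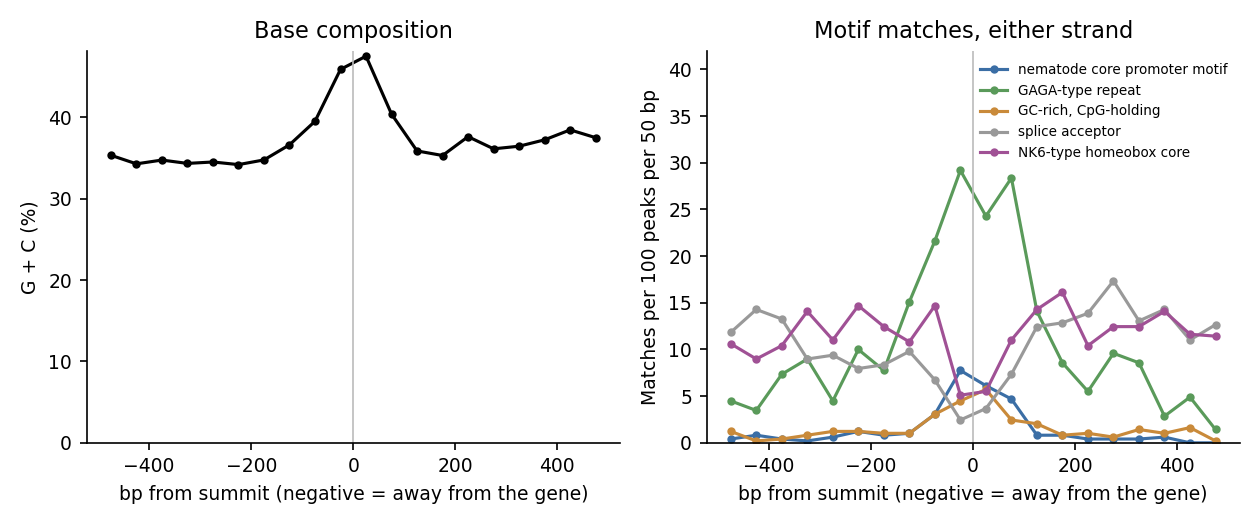
Left, mean GC content in percent; right, motif matches on either strand per 100 peaks in 50-bp bins, overlapping matches counted, both by distance in bp from the summit, with negative values away from the gene, for all 490 members. GC content, the core promoter motif and the GAGA-type repeat are highest around the summit, where the splice acceptor and the NK6-type core have their low points.

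Fewer motifs differed between members and other autosomal peaks, 2 of 18 against divergent and 4 of 18 against intronic and distal ones. GAGAGA was in 26.1% of members, 15.4% of divergent summits (two-sided Fisher's exact test, adjusted exact p = 0.00614 over 18 motifs) and 44.9% of intronic and distal summits (adjusted exact p = 2.45e-08), so that members lay between both classes. CTGCGTCT followed the same order, with 12.7%, 6.29% (adjusted exact p = 0.0358) and 19.7% (adjusted exact p = 0.0209). Against intronic and distal peaks, GGCGCG was more frequent in members, at 9.18% and 4.56% (adjusted exact p = 0.0224), and so was TTTCAG, at 5.51% and 1.74% (adjusted exact p = 0.0209). Divergent summits had higher shares than members, 14.8% for GGCGCG and 7.86% for TTTCAG. Neither difference from members passed (adjusted exact p = 0.103 and 0.426). From the strongest regions of 1 replicate alone, GAGAGA passed both comparisons in each replicate. CTGCGTCT did not pass against intronic and distal peaks in either (adjusted exact p = 0.522 in replicate 2 and 0.0639 in replicate 1), nor against divergent peaks in replicate 1 (0.0654), TTTCAG did not pass in either (0.727 and 0.579), and GGCGCG did not in replicate 2 (0.0504). In the stronger 50% of the list no motif passed against divergent peaks, and GAGAGA alone passed against intronic and distal ones.

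**Figure D5:**
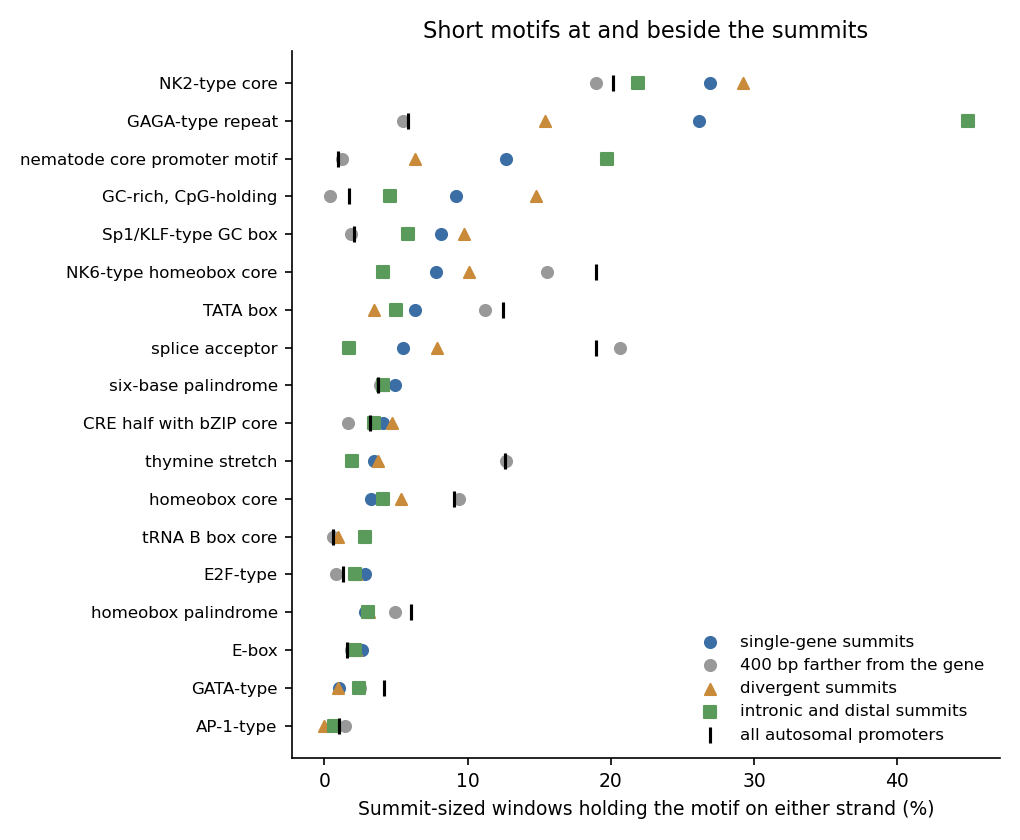
Share of 101-bp windows that hold each of 18 motifs on either strand, in percent, at member summits, 400 bp farther from the gene, at divergent summits, at intronic and distal summits, and upstream of all autosomal genes. The GAGA-type repeat and the nematode core promoter motif are more frequent in members than in divergent summits and less than in intronic and distal ones, while the splice acceptor and NK6-type core are more frequent in the flank.

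Median signals with and without a motif were close, and no test was made. The 62 members with CTGCGTCT had a median pooled signal of 108, and so had the 428 without it. With GAGAGA the median was 108 beside 108 without, and in replicate 2 it was 67.4 beside 62.3. With GGCGCG it was 114.8 beside 107, a gap that is small against the quartiles of 89.1 and 142 of members without it. Among the 100 strongest members CTGCGTCT was in 9 and GAGAGA in 27, beside 13.6% and 25.9% of the other members.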

How the data were processed

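The 4 ce11 region lists deposited for COG-1-GFP mid-embryos were used: 1 per replicate, 1 pooled and 1 thresholded by the irreproducible discovery rate (IDR). Per the deposited file listing, the relaxed lists came from each replicate's and the pooled alignments with a control alignment, and the IDR list from these lists. The aligner, the caller and the IDR threshold are not stated in the sources used here. Signal values and q-values of the authors, the latter on the −log10 scale, were used as deposited. The IDR list held the 1841 pooled regions of highest signal. Read depth was not analysed here. Intervals and p-values cover counting of peaks, not variation between cultures.

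Genes and sequence were those of Ensembl release 115 and WBcel235, whose chromosome lengths no region exceeded. Sequences from chromosome I are not shown. One of the 20 strongest members is not reported here. A replicate value is that of the strongest region holding the summit. Fisher's and McNemar tests were exact and two-sided (SciPy 1.17.1, Python 3.11.15), adjusted by Benjamini-Hochberg with a threshold of 0.05, and tested on simulated sequences. Members, lists and motifs were chosen with earlier results of these data known. Of the list symbols, 4 matched no gene. The genes named are the 20 strongest, up to 4 per list, 5 with several peaks, 5 of largest rank difference and those at the window's edges; knl-2, Y73F8A.27, cwc-15, lgg-2, col-85's RNA neighbours and the remaining members of the ribosomal and chromatin lists were named after their values were seen. Alternatives changed the window, gene starts, motif window, flank, list and replicate, and left out peaks near tRNA genes. A replicate left out means that as many of the strongest regions of the other replicate, 1841, took the list's place, except for the ratio of median signals, where the remaining replicate's signals at the same peaks were used.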

Additional observations from a re-analysis of the deposited data

How the results depend on the processing

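The tested differences kept their sign and the signal ratio to divergent peaks was below 1 under the alternatives run for them, but some gene lists changed sides of the share of all genes. This was so in 15 of 160 repeated list shares, in 10 lists, each with 4 genes or fewer. Homeobox genes fell to 1.33% against 2.57% with the narrow window, tRNA synthetases were at 3.23% with that window and without replicate 2, and histones were at 3.90% without replicate 1. No paired analysis was possible because there was 1 group. The share of autosomal peaks at a single gene was 32.0% with a window of 500 bp upstream to 250 bp downstream and 39.4% with any annotated transcript start. The narrow window gave 94.3% upstream and 58.7% within 250 bp of the start, and the window reaching 2000 bp gave 29.96% within 250 bp, as follows from the window itself. The share in regions of both replicates was 94.5% with reciprocal overlap, 100% in the stronger 50% of the list and 67.6% with the strongest regions of each replicate. A narrower middle stretch, a share of 0.333 of each chromosome, held 43.5%. The share of genes with a member peak was 3.08% with any transcript start and 1.28% in the stronger list, which has fewer peaks. The median signal ratio to divergent peaks was 0.973 with either replicate left out, 0.949 without peaks near tRNA genes and 0.975 with the narrow window. The difference in peaks near non-coding RNA genes to divergent peaks was 4.59 points at 1000 bp and did not pass. Motifs that differed from the flank numbered 7 in the stronger list. Those that differed from divergent peaks numbered 0 in the stronger list and 1 to 3 with a replicate left out. Those that differed from intronic and distal peaks numbered 1 at 25 bp, 7 at 100 bp and 1 in the stronger list, and 1 to 2 with a replicate left out. The motif comparisons that passed in the report were 13 with the flank, 2 with divergent and 4 with intronic and distal peaks. They were repeated 127 times over the alternatives, which share most peaks, and 89 of the repeats passed again and 38 did not. Of 160 repeated list counts, 111 were within 1.5 times of the report's. With 2 replicates, no input among the samples and short lists, small counts of genes are the least certain.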

Other observations

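Members at different distances from the start differed little in signal. The median pooled signal was 106 in the 191 members up to 250 bp upstream, 109 in the 158 from there to 500 bp, 111 in those farther upstream and 100.1 in the 40 at or after the start, with quartiles in the first zone of 89.2 and 137. Some sequence features differed more, although no test was made between zones. Median GC content was 45.5% in the zone nearest upstream and 49.5% in the farthest. GGCGCG was in 20 of the 191, 16 of the 158 and 0 of the 40 members at or after the start, while CTGCGTCT was in 24, 19 and 6 of them.

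The 473 genes were mostly outside the lists: 23.7% were in at least 1 of the 32. As a share of all autosomal peaks of a chromosome, members ran from 31.3% on IV to 41.1% on II.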
